A study of Mus musculus with 16 samples.

Results

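The cytosolic ribosomal protein genes are described here in a single-end enhanced CLIP (seCLIP) experiment on PGC-1α in primary mouse hepatocytes. Members were the protein-coding genes of GENCODE M21 whose symbol starts with Rpl, Rps or Rplp and a digit, leaving out the Rps6k kinases, and that held the midpoint of at least 1 deposited cluster on their own strand. Of 91 annotated genes with such a symbol, 81 had a cluster (49 Rpl or Rplp and 32 Rps), among 10916 protein-coding genes with a cluster. The 10 without one were Rpl10-ps3, Rpl10l, Rpl36-ps4, Rpl36a-ps1, Rpl39l, Rpl3l, Rpl9-ps1, Rpl9-ps6, Rps12-ps3 and Rps27rt. Hepatocytes were isolated from the livers of C57BL/6J mice, for which the labels give no age, and carried no engineered allele that the labels name. All cells were kept in a high-glucose maintenance medium, then overnight in starvation medium, and were either left untreated (control) or given 200 nM glucagon for 3 h before crosslinking at 254 nm and 400 mJ/cm2. Complexes precipitated with a PGC-1α antibody were taken from a lower and an upper gel band, which makes 4 groups of 2 libraries (control lower, control upper, glucagon lower and glucagon upper). Input libraries of each band are labelled, but no files of their own are used here, and they enter only through the fold over input that the authors gave each cluster. The labels do not say whether replicates came from separate cultures or mice, or whether both bands came from 1 precipitate, so each p-value sets a difference against library-to-library spread of a possibly technical kind.

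PGC-1α is a transcriptional coactivator that fasting and glucagon induce in liver, where it drives gluconeogenic and mitochondrial genes, and it carries an RNA recognition motif and an arginine-serine-rich stretch. Cytosolic ribosomal proteins form the large (Rpl) and small (Rps) subunits of the ribosome, and their mRNAs are among the most abundant in hepatocytes and are translated under control of a 5′ terminal oligopyrimidine tract. Their genes are short, with many small introns, and several of those introns carry small nucleolar RNAs (snoRNAs), which are released from the excised intron and guide modification of ribosomal RNA. C/D snoRNAs (named Snord) guide 2′-O-methylation and H/ACA snoRNAs (named Snora) guide pseudouridylation.

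The sequences that recur in the results are those of the hosted snoRNAs, where clusters lay below input, and of intron segments, where clusters lay above it. The 5 snoRNAs shown include the H/ACA snoRNA with the lowest mean fold over input, the C/D snoRNAs with the lowest and the highest, and Gm24523 of Rpl30, the lowest of all that were measured. They are read from the GENCODE M21 transcripts (mm10), 5′ to 3′, with T for U. Capitals mark TGATGA (box C) starting within the first 21 nt and CTGA (box D) starting within the last 20 nt of a C/D snoRNA, and ACA starting within the last 12 nt of the others, all searched on the RNA's own strand.
Snord21 in Rpl5, chr5:107904555-107904648, plus strand: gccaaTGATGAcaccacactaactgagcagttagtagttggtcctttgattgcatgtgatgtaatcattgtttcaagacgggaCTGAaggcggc
Snord33 in Rpl13a, chr7:45126864-45126947, minus strand: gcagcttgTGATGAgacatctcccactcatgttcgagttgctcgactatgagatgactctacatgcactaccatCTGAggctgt
Snord42a in Rpl23a, chr11:78181299-78181363, minus strand: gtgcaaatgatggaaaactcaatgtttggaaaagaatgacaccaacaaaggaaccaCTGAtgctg
Snora21 in Rpl23, chr11:97781639-97781775, minus strand: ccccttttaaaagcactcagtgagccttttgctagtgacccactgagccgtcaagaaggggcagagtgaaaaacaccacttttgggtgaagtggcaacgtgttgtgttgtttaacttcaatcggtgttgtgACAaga
Gm24523 in Rpl30, chr15:34440791-34440922, minus strand: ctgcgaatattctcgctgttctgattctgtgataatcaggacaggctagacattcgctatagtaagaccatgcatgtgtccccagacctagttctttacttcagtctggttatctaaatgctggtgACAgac

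Box C in that exact form was found in 13 of the 21 hosted C/D snoRNAs with a cluster and box D in 20, against 70 (71.4%) and 96 (98.0%) of all 98 annotated transcripts named Snord. The ACA was found in 10 of 10 hosted H/ACA snoRNAs, against 40 of 42 (95.2%) of all transcripts named Snora. Snord42a, the C/D snoRNA whose clusters lay nearest to input, lacks TGATGA in that window.

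Clusters were called enriched when the authors' −log10 p was at least 3 and their log2 fold over input at least 3. Of the 57 enriched clusters in members, 47 lay in introns outside untranslated regions. An annotated noncoding transcript gave the sequence of 15 of these 47, and 13 of the 15 were drawn on here. The 4 shown come from 4 hosts and include the first and second highest log2 folds of these 13. Capitals in Rpl23 mark bases that an enriched cluster of another library also covered. No motif was searched in them.
Rpl35a, chr16:33056670-33056722, plus strand: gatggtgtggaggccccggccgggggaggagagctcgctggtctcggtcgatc
Rps23, chr13:90923283-90923379, plus strand: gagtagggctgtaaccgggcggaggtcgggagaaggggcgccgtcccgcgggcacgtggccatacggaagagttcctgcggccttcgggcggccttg
Rpl23, chr11:97782163-97782225, minus strand: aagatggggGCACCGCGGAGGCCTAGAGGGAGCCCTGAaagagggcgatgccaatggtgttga
Rpl22, chr4:152327398-152327477, plus strand: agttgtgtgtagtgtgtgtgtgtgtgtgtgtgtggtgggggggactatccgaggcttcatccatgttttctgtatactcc

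The 8 libraries held 26279 to 260814 clusters, and the library with the fewest was glucagon lower replicate 1, with the next at 97629. Read depth is unknown, since the files give clusters with a p and a fold but no counts. Clusters in all 12 hepatocyte marker genes numbered 379 to 753 per library. Kupffer cell markers had 4 to 9 clusters per library in 2 of 7 genes, cholangiocyte markers 0 to 12 in 2 of 5, endothelial markers 0 to 1 in 1 of 6 and stellate markers 0 to 4 in 1 of 6. Clec4f, Pecam1, Lrat and Krt19, which define those other cell types, had none. Members held 437 and 468 clusters in control lower replicates 1 and 2, 557 and 523 in control upper, 218 and 516 in glucagon lower, and 395 and 523 in glucagon upper. In total these were 3637 clusters, of which 1665 lay in exons of coding transcripts, 1259 in introns outside snoRNAs and 713 in snoRNAs. A member had a median of 42 clusters summed over libraries (8 to 108), against 51 for other genes, and 68 of 81 had a cluster in every library.

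Hosted snoRNAs were the best covered and least enriched stretches of these genes. Clusters covered 71.0% ± 4.33 of snoRNA bases (SD, n = 8 libraries), against 9.49% ± 1.98 of exon bases and 3.28% ± 1.62 of intron bases, although snoRNAs make up only 1.5% of the members' bases. The median log2 fold over input of snoRNA clusters was −3.11 and −3.50 in control lower replicates 1 and 2, −2.29 and −2.80 in control upper, −2.63 and −3.18 in glucagon lower, and −1.73 and −2.24 in glucagon upper. Every library was thus below input, and least so in glucagon upper replicate 1. Against the other intron clusters of the same genes the difference was −4.47 ± 0.788 on the log2 scale (SD), lower in 8 of 8 libraries (exact two-sided sign-flip permutation test, adjusted p = 0.0137 over 7 tests; smallest unadjusted p possible 0.00781). Of 55 annotated snoRNAs in 29 host members, 53 had a cluster, 51 of them in all 8 libraries, and 46 had a mean log2 fold below −2. Gm23202 in Rpl21 and Gm27326 in Rpl23 had none. With no test between hosts, snoRNA clusters had a mean of library medians of −2.69 ± 0.584 in members, −2.76 ± 0.569 in other protein-coding hosts and −2.55 ± 0.510 outside protein-coding genes.

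The snoRNAs named as H/ACA (Snora) lay further below input than those named as C/D (Snord), and the other 22 with a cluster, whose names give no class, were left out of this comparison. The 10 named H/ACA had a mean log2 fold of −3.65 ± 0.749 (SD, n = 8) and the 21 named C/D one of −2.41 ± 0.596. The difference of −1.24 ± 0.326 had this direction in 8 of 8 libraries and was not tested. The highest H/ACA mean, −3.40 for Snora3 in Rpl27a, lay below the lowest C/D mean, −3.07 ± 0.903 for Snord21. The 22 without a class in their name ranged from −4.76 to 0.46. Of these, Gm24888 in Rpl27a was of H/ACA length (130 nt) and lay among the C/D values at −2.70, so the separation holds only for the named ones. The named H/ACA snoRNAs were also longer, with a median of 133 against 83 nt, and the part of length in the difference was not tested. Among single snoRNAs, Gm24523 in Rpl30 had the lowest mean (−4.76 ± 0.748, −5.97 to −3.44), followed by AF357399 in Rps16 (−4.13 ± 1.26). Snora21 was at −3.82 ± 0.817. Snord42a in Rpl23a had the highest mean among those with clusters in every library (−0.79 ± 0.720), and with 0.23 in control upper replicate 1 was above input there. Gm22077 in Rpl3 had a single cluster, at 0.46, and the other 51 snoRNAs were below input in every library where they had a cluster.

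**Figure D1:**
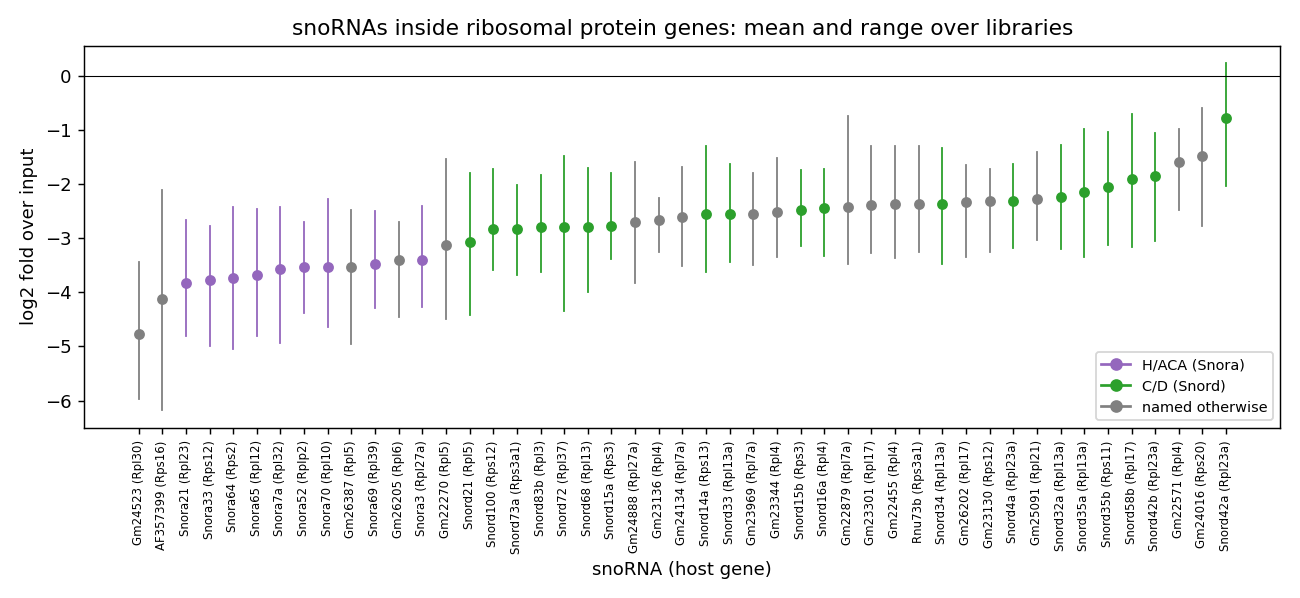
Mean (point) and range over libraries (line) of the log2 fold over input of the plotted hosted snoRNAs, each with clusters in at least 5 libraries, ordered by mean, with its host gene in brackets. The H/ACA snoRNAs (purple) have means between −3.82 and −3.40, left of the C/D snoRNAs (green), and only the line of Snord42a crosses 0.

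Rpl13a, whose protein also serves in translational silencing after interferon, hosts Snord32a, Snord33, Snord34 and Snord35a and had 57 of its 77 clusters in them. Rps12 had 53 of 53 clusters in snoRNAs, so that no cluster of Rps12 lay on its mRNA exons or remaining introns. Rpl27a had 41 of 49 and Rpl17 38 of 53. Rpl4, which lines the peptide exit tunnel, had the most clusters of all members (108), with 46 in 5 snoRNAs, 62 in exons and 0 in introns outside them. Its exon clusters had a mean of library medians of −0.47 ± 0.392. RefSeq annotates 2 snoRNAs that GENCODE M21 lacks: Snord43 in Rpl3 (8 clusters, −1.30 ± 0.547) and LOC115489588 in Rpl7a (9 clusters, −2.18 ± 0.501). The latter holds the 9 clusters counted as intron in Rpl7a, which give that gene an intron median of −1.98.

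**Figure D2:**
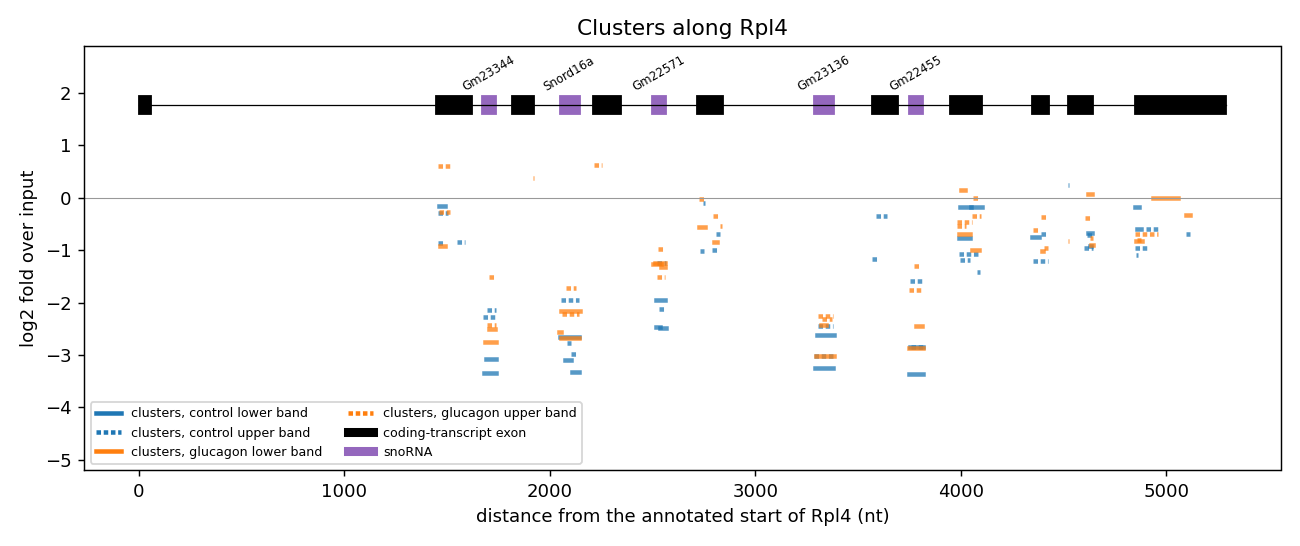
Clusters of the 8 libraries along Rpl4 by distance in nt from its annotated start (x) and log2 fold over input (y), with exons of coding transcripts (black) and snoRNAs (purple) drawn above. Clusters on the 5 snoRNAs lie between about −1 and −3.7, below most clusters on exons.

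Outside the snoRNAs, intron clusters lay above input and exon clusters near or below it. The median log2 fold of intron clusters was 1.82 and 1.93 in control lower replicates 1 and 2, 1.29 and 1.46 in control upper, 2.74 and 1.73 in glucagon lower, and 1.86 and 1.47 in glucagon upper. For exon clusters it was −0.38 and −0.64, −0.42 and −0.50, 0.18 and −0.72, and 0.38 and −0.24 in the same order. The ranges of both do not meet: the lowest intron value was above the highest exon value. Exon minus intron was −2.08 ± 0.427 (SD), negative in 8 of 8 libraries (exact sign-flip permutation test, adjusted p = 0.0137). The same gap was wider in members than in the other protein-coding genes, by −0.52 ± 0.321 in 8 of 8 libraries (exact sign-flip permutation test, adjusted p = 0.0137). With mean in place of median folds this difference was −0.26 and its adjusted p 0.0547, and with exons of all transcripts it was −0.31.

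The wider gap lay in the exons. Exon clusters of members were 0.45 ± 0.243 lower on the log2 scale than those of other genes (difference −0.45, lower in 8 of 8 libraries, exact sign-flip permutation test, adjusted p = 0.0137), whose own medians averaged 0.15 ± 0.30. Counting exons of noncoding transcripts too, the difference was −0.22 with an adjusted p of 0.109. Intron clusters of members averaged 1.79 ± 0.445 and those of other genes 1.71 ± 0.442, a difference of 0.08 ± 0.118 that was positive in 4 and negative in 2 libraries and did not pass (exact sign-flip permutation test, adjusted p = 0.125). Exons held 46.5% ± 5.88 of members' clusters and 30.8% ± 11.1 of other genes' clusters. Clusters in snoRNAs count in these wholes, at 20.6% ± 6.57 of members' and 0.207% ± 0.205 of other genes' clusters. Members exceeded other genes by 15.7 ± 9.08 percentage points, with 7 of 8 libraries on this side (exact sign-flip permutation test, adjusted p = 0.0182), and glucagon lower replicate 1 was the exception (50.5% in members, exact Clopper-Pearson 95% interval 43.6 to 57.3 for counting error only, against 54.2%). In that library snoRNAs held 33.0% of members' clusters and 0.706% of other genes', and introns held 16.5% and 45.1%. The exon share difference was 26.1 points with exons of all transcripts. It was 27.7 points without the 36 members that share over 50% of their exon sequence with other genes. The sign depended on the genes compared: against oxidative phosphorylation subunit genes, another set of short abundant mRNAs, the difference was −19.9 points (exact sign-flip permutation test, adjusted p = 0.0109). Of the 4308 clusters in those genes 21 lay in snoRNAs, against 713 of 3637 in members. The part of snoRNA clusters in these share differences was not tested.

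Within exons, the folds differed by position. Clusters in coding sequence had a mean of library medians of −0.50 ± 0.438 in members, below that of other genes (0.01 ± 0.308) in 8 of 8 libraries, and 300 of 1046 were above input. Clusters in 3′ UTRs were at 0.98 ± 0.232 in members and 0.34 ± 0.299 in other genes, higher in 8 of 8 libraries by 0.63 ± 0.196. Clusters in 5′ UTRs were at 0.28 ± 0.419 and 0.97 ± 0.267, lower in 8 of 8. These differences were not tested. Alternative transcripts enter them: 187 of 393 5′ UTR clusters also lay in an intron of another coding transcript, and these had a mean of 1.74 ± 0.334, against −0.43 ± 0.495 for the other 206. For 3′ UTRs 60 of 226 did so, at 1.54 ± 0.382, against 0.71 ± 0.245 for the other 166. Rps15a, Rpl9, Rpl7l1 and Rps28 held 119 of the 226 3′ UTR clusters.

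**Figure D3:**
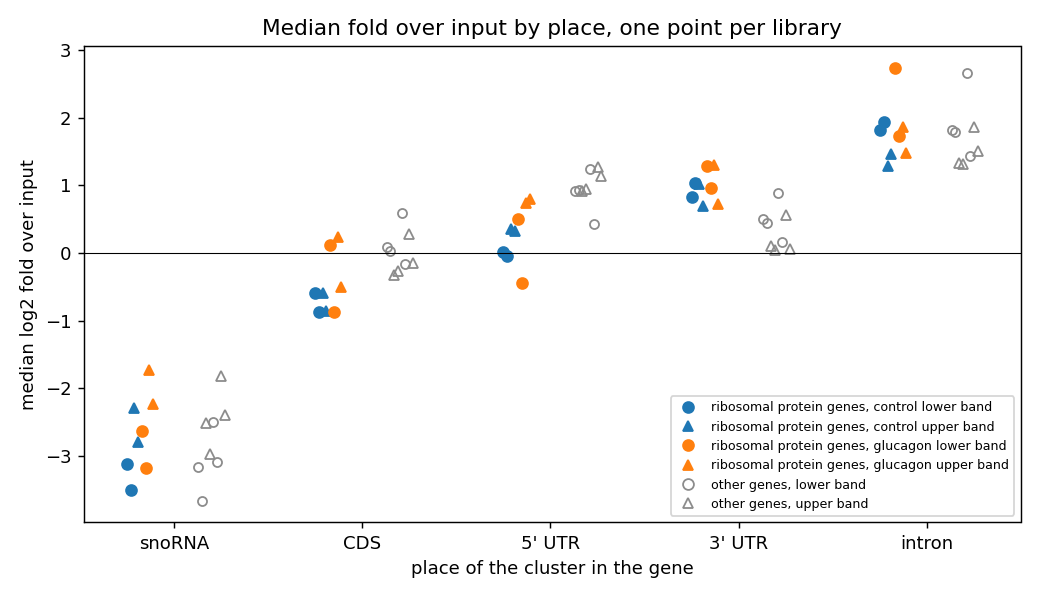
Median log2 fold over input (y) of clusters by place in the gene (x), 1 point per library, for members (filled, coloured by treatment, shaped by band) and other protein-coding genes (open). In members the values climb from snoRNA (−3.50 to −1.73) through coding sequence to intron (1.29 to 2.74), while 3′ UTR points of members lie above those of other genes in each library.

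Most members showed the order one by one. Of 62 members with both exon and intron clusters, 56 had the higher median in introns, and the 6 others included Rpl10a, Rpl11, Rpl12, Rpl28 and Rpl36a. Without glucagon lower replicate 1, the count was 55 of 62. Exon medians were below input in 38 of 70 members with exon clusters, down to −1.20 in Rplp2, and intron medians were above 1 in 61 of 72 with intron clusters. Over all clusters of a gene, only Rpl7a and Rps2 (1 intron cluster, −0.27) had an intron median below input. Rpl3 was above by that measure (0.40) and below by the mean of its library medians (−0.35 ± 0.821). Its 27 intron clusters include the 8 in the RefSeq snoRNA Snord43, which were at −1.30 ± 0.547. Rplp0, the base of the ribosomal stalk, had 75 clusters, all assigned to exons, at −1.04 ± 0.587 (mean of library medians). Rps3, at the mRNA entry site, had 62 of 91 in exons at −0.34 ± 0.398. Rps19, which is mutated in Diamond-Blackfan anaemia, had 51 exon clusters at 0.08 ± 0.385 and 36 intron clusters at 1.52 ± 0.488. Rps15a stood on the other side, with 78 exon clusters at 1.25 ± 0.310, above input in the mean, and 27 intron clusters at 1.44 ± 1.13.

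Several members were mostly intronic. Rpl11, which with Rpl5 and 5S ribosomal RNA binds the p53 regulator Mdm2, had 61 of 66 clusters in introns, at 2.17 ± 0.525. Rps18 had 43 of 52 (1.63 ± 0.429), Rps10 47 of 58 (1.56 ± 0.821), Rps7 36 of 59 (1.27 ± 0.503) and Rpl6 29 of 52 (1.73 ± 0.412). Rpl22, an RNA-binding large-subunit protein with roles outside the ribosome, had 64 of 87 at 2.55 ± 0.388, while its 23 exon clusters were at 0.57 ± 0.770. The paralogue Rpl22l1 had 20 of 26 in introns at 2.27 ± 0.75. The other atypical members were mostly exonic: Rps27l had 35 of 36 clusters in exons (0.10 ± 0.554), Rpl36al 23 of 23 (−0.26 ± 0.522) and Rpl7l1 24 of 42 (0.66 ± 0.909). Rps19bp1, which encodes a protein that binds Rps19 and is no ribosomal protein, matched by its symbol and had 10 clusters.

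**Figure D4:**
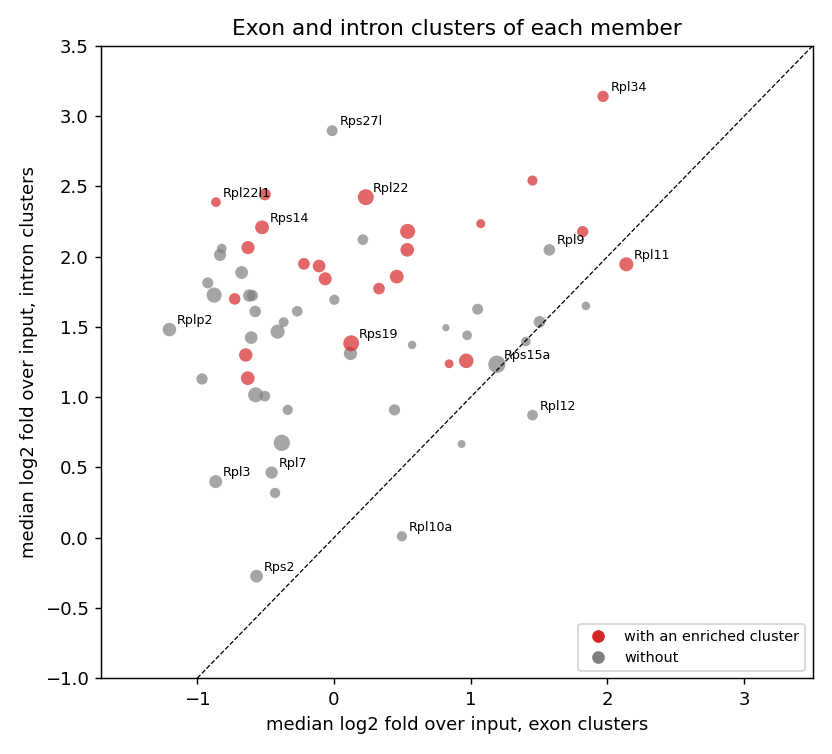
Median log2 fold over input of exon clusters (x) against that of intron clusters (y) for the 62 members with both, with point area growing with the number of clusters, members with an enriched cluster in red and a dashed line of equality. In 56 of 62 members the point lies above the line, and Rpl10a, Rpl11 and Rpl12 are among the 6 that do not.

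The members' 375 introns had a median length of 338 nt. First introns carried the higher folds: their clusters averaged 2.04 ± 0.458 and those of later introns 1.6 ± 0.411, a difference of 0.44 ± 0.186 that was positive in 8 of 8 libraries. In other genes it was 0.18 ± 0.132, positive in 6 and 0 in the other libraries. In first introns 8.60% ± 3.32 of members' clusters were enriched and in later ones 1.86% ± 1.14, against 5.52% ± 1.62 and 3.25% ± 1.54 in other genes. Over all libraries these were 30 of 373 clusters in first and 17 of 863 in later introns of members. Rpl22 alone had 11 enriched intron clusters, most of them near its start, and the rates without Rpl22 were not computed. Whether the first-intron difference was larger in members was not tested. The 54 introns that carry a snoRNA held 88 clusters beside it, at 1.84 ± 0.226, and the 321 other introns 1148 clusters at 1.74 ± 0.470. Within those 54 introns, then, the snoRNA lay below input and the sequence around it above.

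Enriched clusters were found in 27 of 81 members (33.3%), and in 26.5% of all 10916 protein-coding genes with a cluster. The order depended on the threshold: it was 53.1% of members against 31.6% at a log2 fold of at least 2, 9.88% against 16.4% at 4, and 14.8% against 15.6% at a −log10 p of at least 5. Of the 57 clusters, 47 lay in introns, 46 of them within 500 nt of an exon. Of all intron clusters, enriched or not, 85.9% in members and 20.3% in other genes lay within that distance. The other 10 enriched clusters lay in 5′ UTRs, where each was also in an intron of another coding transcript. None of 1046 coding sequence clusters was enriched, which allows a share of up to 0.287%, nor any of 713 snoRNA clusters (up to 0.421%) or 226 3′ UTR clusters (up to 1.33%). These limits cover counting error only and treat as separate the clusters that recur at 1 place in several libraries. Of the members' own clusters 1.5% ± 0.587 were enriched, and of other genes' clusters 2.73% ± 0.769. The difference of −1.23 ± 1.05 points was negative in 7 of 8 libraries (exact sign-flip permutation test, adjusted p = 0.0182), with glucagon lower replicate 2 the exception (1.55% against 1.32%). At a log2 fold of at least 2 it was −0.24 with an adjusted p of 0.695, at least 4 gave −0.63, a −log10 p of at least 5 gave −0.58, and against oxidative phosphorylation genes it was 0.56 points with an adjusted p of 0.164. Among intron clusters alone, 3.80% ± 0.991 were enriched in members and 3.87% ± 1.53 in other genes, with members higher in 5 of 8 libraries.

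Rpl22 led with 11 enriched clusters in 7 libraries. Of these 11, 10 lie between chr4:152325946 and 152326697, near the gene's start at 152325742, and the last is the segment printed above. In the authors' deposited table of reproducible peaks, Rpl22 had a peak at chr4:152326074-152326186 in control lower (log2 fold 3.02) and at chr4:152326079-152326207 in glucagon upper (−log10 p 18.5, log2 fold 3.76). The highest-fold cluster overlapping it had a log2 fold of 2.96 and 3.35 in control lower replicates 1 and 2, 2.30 and 3.25 in control upper, 3.10 and 2.43 in glucagon lower, and 3.73 and 3.31 in glucagon upper. This stretch of Rpl22 was thus above input in all 8 libraries. Rpl34 followed with 7 enriched clusters in 4 libraries, all in its 5′ UTR as annotated, up to 4.70 in glucagon lower replicate 2. Rpl36 had 4 in 3 libraries, all in introns, and no exon cluster at all. Rpl11 had 3 in 3 libraries (up to 4.14), Rps3a1 3 in 3 (up to 3.42) and Rpl17 3 in 3 (up to 3.60). The segment of Rpl23 printed above had 3.47 in control lower replicate 2 and, over its capitals, 3.93 in glucagon lower replicate 2. That of Rpl35a had 4.40 in control lower replicate 1, and that of Rps23 4.37 in control upper replicate 2, each in 1 library. The authors' deposited table lists reproducible peaks in 4 members (4.94%), Rpl22, Rpl26, Rpl34 and Rpl36, against 10.8% of the 10916 genes. Of these peaks 5 were in control lower, 1 in glucagon upper and none in the authors' deposited tables for control upper or glucagon lower, which hold 3692 and 413 peaks.

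Processed pseudogenes of these genes share their sequence, so reads from spliced mRNA can map to several places. Of the 30-mers in a member's coding transcripts a median of 46.2% (0 to 99.1%) also occurred in another gene's transcripts. Exon clusters per 1000 such 30-mers had a median of 6.53 in the 36 members above 50% and of 19.3 in the 45 others. Over the 81 members the shared percentage and that density had a Pearson r of −0.31 and a Spearman rho of −0.36, given as a description of genes that share libraries and sequence. The 11 members without an exon cluster were Rpl17, Rpl23a, Rpl24, Rpl27a, Rpl36, Rpl7a, Rps12, Rps13, Rps27, Rps29 and Rps6. They shared 37.5 to 94.6% of their 30-mers, over 50% in 7 of them. Exon cluster numbers of single members are therefore uncertain, and how reads with several matches were treated is not given in the sources used here. Of 292 annotated pseudogenes with a member-like symbol 10 had a cluster.

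Genes of the large and the small subunit had the same order of exon, intron and snoRNA folds. The mean of library medians was −0.21 ± 0.360 in exons, 1.80 ± 0.420 in introns and −2.75 ± 0.617 in snoRNAs of large subunit genes, and −0.39 ± 0.457, 1.62 ± 0.441 and −2.51 ± 0.515 in small subunit genes. No test was run on these differences. In 34 other mRNAs with a terminal oligopyrimidine tract, such as translation factors, exons were at −0.32 ± 0.394 and introns at 1.7 ± 0.531. In 46 ribosome biogenesis genes they were at 0.44 ± 0.474 and 1.92 ± 0.902, in 78 mitochondrial ribosomal protein genes at 0.71 ± 0.617 and 1.93 ± 0.918, and in 77 oxidative phosphorylation genes at 0.05 ± 0.340 and 1.71 ± 0.630. Secreted plasma protein genes were at −0.86 ± 0.293 and 1.15 ± 0.535, with 96.1% of their clusters in exons. These lists were chosen with results of these data known and their values are descriptions.

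Glucagon was compared with control within each band. No difference passed, and the design cannot reach an unadjusted p below 0.0556. Members held 0.336% and 0.267% of protein-coding clusters in control lower replicates 1 and 2 and 0.852% and 0.279% in glucagon lower, so that these groups overlapped. They held 0.236% and 0.204% in control upper and 0.412% and 0.256% in glucagon upper, without overlap. The mean difference was 0.189 points (exact permutation test within bands, p = 0.222, adjusted p = 0.278 over 4 tests), but 0.046 points without glucagon lower replicate 1 and 0.332 without replicate 2. The share was highest in the library with the fewest protein-coding clusters (25585) and lowest in that with the most (256197), and the part of cluster number in the difference was not tested. The share counts called clusters and is no measure of RNA amount, so it cannot tell more cells from more RNA per cell. The exon share of members' clusters was 47.6% and 40.8% in control lower, 50.5% and 47.3% in glucagon lower, 42.0% and 39.0% in control upper, and 57.2% and 47.4% in glucagon upper, a mean difference of 8.24 points (exact permutation test, adjusted p = 0.222). Other genes' exon share also averaged more with glucagon, 36.2% ± 12.8 against 25.4% ± 6.81 (SD, n = 4). The exon fold differed by 0.39 (exact permutation test, adjusted p = 0.278) and the snoRNA share by 4.02 points (exact permutation test, p = 0.0556, adjusted p = 0.222), the latter without overlap in both bands. Without glucagon lower replicate 1 these were 0.16 and 1.92, and without replicate 2 they were 0.61 and 6.13. Counted in bases covered instead of clusters, the snoRNA share difference was 3.72 points (exact permutation test, p = 0.389). With clusters of at least 20 nt it was 3.19 points (exact permutation test, p = 0.389). The exon fold difference was 0.23 without glucagon upper replicate 1, 0.23 on folds centred on the library median and 0.045 with exons of all transcripts, where the exon share difference was 2.18 points.

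Per 100000 clusters in protein-coding genes, 6 members (7.41%) were higher with glucagon without overlap in both bands, against 4.21% of all genes, and 1 (1.23%) was lower, against 10.1%. The 6 were Rpl4, Rps3, Rps12, Rpl18, Rpl9 and Rpl24. Rpl4 had 8.45 and 6.28 per 100000 in control lower, 27.4 and 9.19 in glucagon lower, 7.21 and 6.25 in control upper, and 14.6 and 7.35 in glucagon upper. In Rpl18, a large-subunit protein, the values were 3.07 and 2.85, 3.91 and 3.79, 1.27 and 1.56, and 6.26 and 3.92 in the same order. In both genes the replicate with fewer clusters was the higher with glucagon. Rps19bp1 was the 1 lower member, with 0.77 and 0.57, 0 and 0.54, 2.12 and 0.78, and 0 and 0, which rests on 1 cluster in the 4 glucagon libraries. Without glucagon lower replicate 1, the counts were 6 (7.41%, against 8.62% of all genes) and 1 (1.23%, against 10.8%).

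Upper and lower bands were compared within each treatment, with the same limit on p. The share of members' clusters in snoRNAs was 22.2% and 23.9% in control lower replicates 1 and 2, 13.5% and 14.9% in control upper, 33.0% and 24.6% in glucagon lower, and 15.9% and 17.02% in glucagon upper. The upper band was below the lower without overlap under both treatments. The mean difference was −10.6 points (exact permutation test within treatments, p = 0.0556, adjusted p = 0.222). In bases covered instead of clusters it was −7.21 points (exact permutation test, p = 0.111). Clusters covered 72.6% and 74.5% of snoRNA bases in control lower and 71.4% and 73.0% in control upper. In glucagon lower it was 64.6% and 76.2%, and in glucagon upper 64.4% and 71.7%. In the same order, members' snoRNA clusters had median lengths of 38 and 31.5 nt, 47 and 52, 45 and 26, and 50 and 42. The part of cluster length was not tested. Other genes' share in snoRNAs was 0.119% ± 0.0482 in the upper and 0.296% ± 0.274 in the lower band (SD, n = 4), and the folds of members' snoRNA clusters were −2.26 ± 0.439 and −3.11 ± 0.359. The share of protein-coding clusters differed by −0.156 points (exact permutation test, adjusted p = 0.667), by −0.013 without glucagon lower replicate 1 and by −0.30 without replicate 2. The exon fold differed by 0.20 (adjusted p = 0.667, exact permutation test) and the exon share by −0.126 points (exact permutation test, adjusted p = 1). Clusters in snoRNAs count in the whole of this exon share. Introns held 38.3% ± 8.91 of members' clusters in the upper and 27.5% ± 7.93 in the lower band (SD, n = 4), which was not tested. The sign of the exon share difference changed with the exon definition and in 4 of 8 omissions of a library, to between 0.63 and 2.32, namely without control lower replicate 1, control upper replicate 2, glucagon lower replicate 1 or glucagon upper replicate 2. The exon fold difference ranged from −0.03 without glucagon lower replicate 2 to 0.42 without replicate 1.

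No member (0%) was higher in the upper band without overlap under both treatments, against 2.92% of all genes, and 6 (7.41%) were lower, against 1.69%. They included Rps12, Rps9, Rpl22, Rpl26 and Rpl29. Rps12, whose clusters all lay in snoRNAs, had 5.38 and 4.57 clusters per 100000 in control lower, 2.12 and 1.95 in control upper, 23.5 and 5.95 in glucagon lower, and 4.17 and 3.43 in glucagon upper. Rpl22, whose clusters lay in introns and exons, had 9.99 and 7.99, 6.36 and 4.29, 15.6 and 8.11, and 4.17 and 5.39 in the same order. Both were lower in each upper-band library than in each lower-band library of the same treatment. Without glucagon lower replicate 1, the counts were 1 higher (1.23%, against 3.34% of all genes) and 6 lower (7.41%, against 5.02%).

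**Figure D5:**
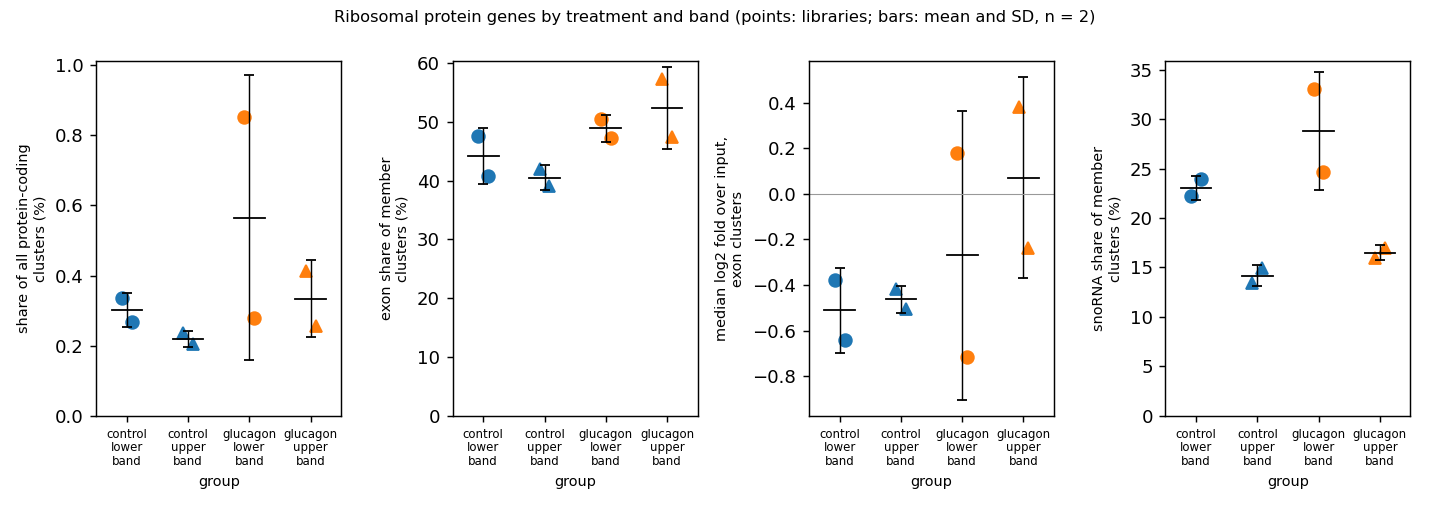
Members' share of protein-coding clusters, exon share, median log2 fold of exon clusters and snoRNA share (y axes) by treatment and band (x), with 1 point per library and the mean and SD of 2 libraries. Counted in clusters, the snoRNA share separates the bands (13.5 to 17.02% upper, 22.2 to 33.0% lower), while glucagon lower replicate 1 stands apart in the first panel at 0.852%.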

How the data were processed

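Crosslinked RNA was measured by seCLIP in 8 immunoprecipitates, 2 per group. Per the submitters' processing notes, cutadapt and STAR were used with mm10; no version is named, and neither the cluster caller nor the rule for reproducible peaks is stated in the labels or headers. Each deposited cluster carries the authors' −log10 p (at most 400) and log2 fold over input. The files give no header and no read counts, so precision rests on cluster numbers. Clusters were placed by midpoint and strand in GENCODE M21 genes, with snoRNA before exon and exon before intron; exons were those of coding transcripts. Within-library differences were tested by exact two-sided sign flips over 8 libraries (256 assignments, Benjamini-Hochberg over 7), treatment and band by exact permutation within strata (36 assignments, over 4 each), with a threshold of 0.05. Bands were counted as separate units. Reproducible peaks were used as deposited. Named genes were the 8 members with the highest mean share, up to 15 with an enriched cluster, the 6 with most snoRNA clusters, the 6 with the highest intron share, up to 5 per direction without overlap and the atypical members; others are named where a count of few is broken down, after their values were seen. A few members and their snoRNAs are counted but not reported by name here. Members and lists were chosen with earlier results of these data known. The tests were also run on simulated libraries drawn independently of each other, which cannot show how they behave if bands share a precipitate. Alternatives covered exon definition, assignment by any shared base, bases covered, clusters of at least 20 nt, mean folds, thresholds, comparison genes and omitted libraries. Thresholds for counts, RefSeq snoRNAs, shared 30-mers and centred folds were added after seeing the data. Scripts ran under scipy 1.17.1, pandas 2.3.3, numpy 2.4.6 and Python 3.11.15, with plots from matplotlib 3.10.9.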

Additional observations from a re-analysis of the deposited data

How the results depend on the processing

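Of 271 alternative values, 251 kept their direction and their side of the threshold. Of these, 69 were treatment and 62 band values, where no p below 0.0556 can be reached, so only the direction could change. Some others could not change, since the setting does not enter them, such as the enriched share difference of −1.23 under other exon definitions. The values that did change were these, and the cause was not tested. With exons of all transcripts, the exon fold of members minus other genes was −0.22 (adjusted p = 0.109, exact permutation test), and the exon share difference between bands was 5.08. With any shared base, the latter was 1.16. With mean folds, the wider exon-intron gap was −0.26 (adjusted p = 0.0547, exact permutation test) and the intron fold difference −0.040. With a log2 fold of at least 2, the enriched share difference was −0.24, 43 members (53.1%, against 31.6% of all genes) had an enriched cluster and such clusters numbered 189. At least 4 gave 8 members (9.88% against 16.4%) and 9 clusters, and a −log10 p of at least 5 gave 12 members (14.8% against 15.6%) and 29 clusters. Against oxidative phosphorylation genes the exon share difference was −19.9 and the enriched share difference 0.56. Leaving out 1 library each, the band difference ranged from −2.58 to 2.32 for exon share and from −0.029 to 0.42 for exon fold, and members higher in the upper band numbered 1 without glucagon lower replicate 1. The 7 within-library calls held in all 8 omissions.

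Replicate numbers are shared between groups, and same-numbered libraries deviated together with correlations of 0.14 to 0.46 over 10916 genes. With only 2 per group and no label of a shared batch, the numbers are not taken as pairs. With a replicate block (16 assignments, smallest p 0.125), the glucagon differences were 0.189, 8.24, 0.39 and 4.02 with exact permutation adjusted p from 0.167 to 0.25, and the band differences −0.156, −0.126, 0.20 and −10.6 with adjusted p from 0.25 to 1 (exact permutation test); none passed. Unknown read depth and 218 to 557 member clusters per library limit small differences.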
